A study of Olea europaea with 12 samples.

Results

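The genes described here are the olive genes named for the mevalonate pathway, for squalene synthesis and epoxidation, for the cyclases that make cycloartenol and beta-amyrin, and for the tailoring and conjugation of sterols. They were taken by words in the gene descriptions of the deposited table (hydroxymethylglutaryl in its spellings, acetyl-CoA acetyltransferase, mevalonate, isopentenyl-diphosphate, farnesyl pyrophosphate, squalene, cycloartenol, amyrin synthase, lupeol and sterol), and beta-amyrin 28-oxidases were set aside. Of 51008 genes in the table, 119 matched, and 92 of these reached 1 FPKM in 3 or more of the 12 libraries. FPKM is the number of fragments scaled by transcript length and by the mapped fragments of a library, so levels of different genes are compared per length. The 27 genes below that level are not described further; none exceeded 1.25 FPKM in any library and 4 were listed at 0 in all of them. Closest below the threshold were LOC111366033, LOC111376159 and LOC111370682, whose third-highest values were 0.85, 0.85 and 0.96 FPKM, and closest above it were LOC111382182, LOC111403297 and LOC111379431, with 1.09, 1.26 and 1.77 FPKM. By description, 25 of the 92 genes belonged to the mevalonate pathway, 11 to farnesyl pyrophosphate and squalene, 7 to the cyclases, 20 to sterol tailoring and 11 to sterol conjugation, which makes 74 genes of synthesis and conjugation. The other 18 matched a word without being synthesis genes: 13 oxysterol-binding proteins, 3 lecithin-cholesterol acyltransferase-like genes and 2 hydroxymethylglutaryl-CoA lyases.

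Total RNA was sequenced from fruit mesocarp, the oily flesh of the olive, of Olea europaea cultivar Koroneiki, a Greek oil variety. Field-grown trees under local farm practice were sampled in one season at 4 ages, counted in weeks after flowering (WAF): 17, 21, 26 and 30. Each age has 3 libraries, called A, B and C by the labels, and no age carried a treatment. Fruits of like colour, size and shape were picked at each age, and each later age was compared with the one before it and with the first. The labels do not say that the libraries of an age came from separate trees, so the p-values rest on a spread between samples that may be technical.

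In plants, the mevalonate pathway joins acetyl-CoA units outside the plastid into the C5 units isopentenyl diphosphate and dimethylallyl diphosphate, and the reductase that releases mevalonate is regarded as its main point of control. These units are built up to farnesyl pyrophosphate, which is joined head to head into squalene, and squalene epoxide is then folded by cyclases either into cycloartenol, the start of the phytosterols, or into beta-amyrin and related triterpenes. Olive oil is known for its squalene and beta-sitosterol, and olive fruit for oleanolic and maslinic acid, which derive from beta-amyrin.

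FPKM summed to between 790578 and 845585 per library, and between 36754 and 39524 genes were listed above 0. The fewest were in library C of 30 WAF, where the other libraries had at least 38351. Whole reads could not be recovered from the values, so the depth is unknown. Genes typical of other fruit tissues were followed as lists. Seed storage proteins (9 genes matched, 3 tested, 1 listed at 0 throughout) summed to 135 to 139 FPKM per library at the first age and 64.7 to 69.7 at the last. Endocarp and vessel genes (16 matched, 2 tested, 2 at 0) summed to 11.2 to 18.7 FPKM at any age. Epidermal wax and cutin genes (47 matched, 27 tested, 3 at 0) summed to 885 to 905 FPKM in the libraries of 17 and 21 WAF and 797 to 824 in those of 26 WAF, but 1732 to 1767 in those of 30 WAF.

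More of the 92 genes fell than rose from 17 to 21 WAF, and more rose than fell from 26 to 30 WAF. All log2 changes here are differences between mean log2(FPKM + 1) at the later and the earlier age, given as value ± standard error, and a gene is said to have risen or fallen at a Benjamini-Hochberg adjusted p under 0.05 in limma's moderated test over all genes tested. From 17 to 21 WAF, 56 of the 92 fell, where 35.9% of all 26131 genes tested did, and 15 rose, where 22.2% of all genes did. Their median log2 change was -0.29, beside -0.07 over all genes tested. Between 21 and 26 WAF, 34 rose (23.2% of all genes) and 26 fell (32.9% of all genes), with a median of 0.02 beside -0.06. Between 26 and 30 WAF, 50 rose (42.0% of all genes) and 19 fell (24.3% of all genes), with a median of 0.21 beside 0.10. From the first age to the last, 40 rose (34.9% of all genes) and 25 fell (38.9% of all genes), with a median of 0.09 beside -0.03. Under TPM scaling, which gives every library the same sum, this split nearly levelled, with 35 higher and 32 lower. All genes tested then gave 8010 higher and 11408 lower. With libraries scaled by the median of ratios, the split of the 92 was 42 higher and 18 lower between 21 and 26 WAF. That scaling gave 7645 higher and 6674 lower of all genes tested. Between 26 and 30 WAF it gave 41 of the 92 higher and 26 lower, beside 8441 and 8158 of all genes tested. Over the 4 ages, 86 of the 92 changed in the moderated F test, as did 89.9% of all genes tested. Neighbouring comparisons share the libraries of one age and are therefore not independent of each other.

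By age mean, 41 of the 92 genes peaked at 30 WAF, beside 35.7% of all genes tested. The first age held the peak of 29 (35.4% of all genes), and 21 and 26 WAF that of 11 each (19.0% and 9.95% of all genes). By role, 18 of 25 mevalonate genes were highest at 30 WAF, while 11 of 20 tailoring genes were highest at 17 WAF. Replicates lay close together, with a median coefficient of variation of 3.4% over the 295 age means of 5 FPKM or more. In bulk tissue, fewer cells of a type and less RNA per cell cannot be told apart.

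**Figure D1:**
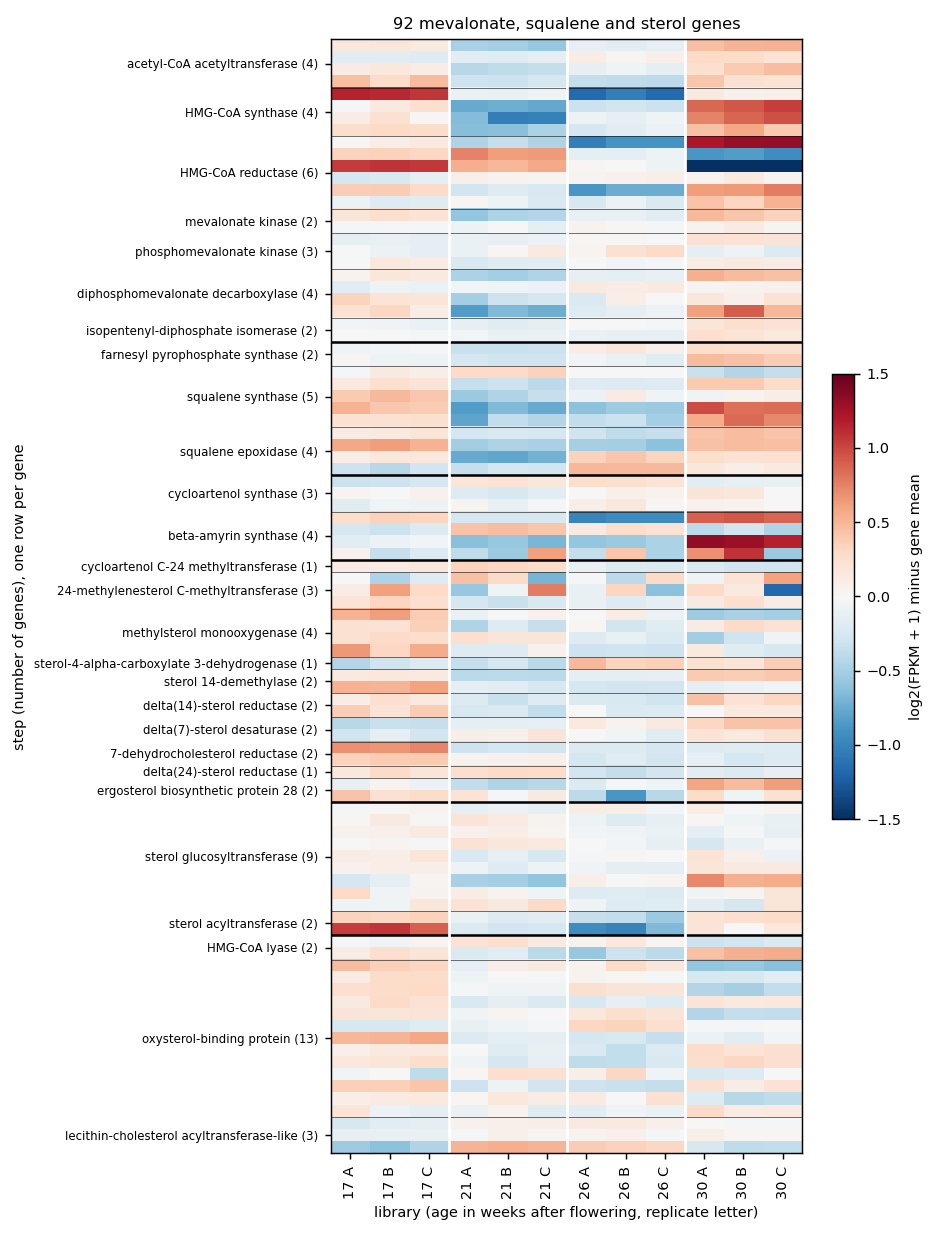
Levels of the 92 genes in the 12 libraries, one line per gene in pathway order and grouped by step, as log2(FPKM + 1) minus the mean of the gene (colour scale from -1.5 to 1.5). Most lines of the mevalonate and squalene steps are blue at 21 WAF and red at 30 WAF, and 11 of the 20 tailoring lines are reddest at 17 WAF.

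**Figure D2:**
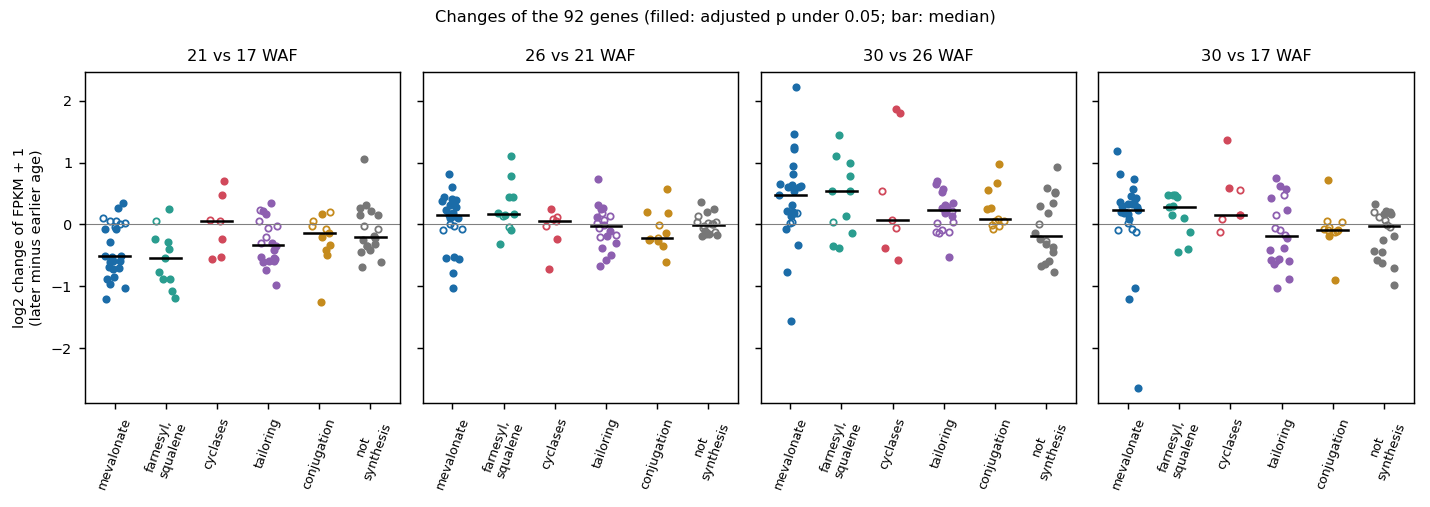
Log2 change of FPKM + 1 of each of the 92 genes in 4 comparisons of ages, by role (filled points have an adjusted p under 0.05, bars are medians). The median of the mevalonate genes is -0.52 from 17 to 21 WAF and 0.48 from 26 to 30 WAF, and the genes that are not synthesis have a median of -0.18 in the latter comparison.

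The early steps carried most of the expression and dipped at 21 WAF. The 25 mevalonate genes summed to 2014, 2046 and 2010.4 FPKM at 17 WAF, 1508, 1491 and 1499 at 21 WAF, 1669.5, 1674 and 1679 at 26 WAF and 2289, 2323 and 2308 at 30 WAF. The libraries of every age were separate from those of every other, with the lowest sums at 21 WAF and the highest at 30 WAF. From 17 to 21 WAF 17 of the 25 fell and 2 rose, with a median log2 change of -0.52, where 35.9% and 22.2% of all genes tested did. Under median-of-ratios scaling 15 fell and 6 rose, beside 7330 and 7430 of all 26131 genes tested. Between 21 and 26 WAF 15 rose and 5 fell (median 0.16), where 23.2% and 32.9% of all genes did. Between 26 and 30 WAF 18 rose and 4 fell (median 0.48), where 42.0% and 24.3% of all genes did. At 30 WAF 18 were higher and 3 lower than at 17 WAF (median 0.24), as were 34.9% and 38.9% of all genes. Over all 74 genes of synthesis and conjugation the sums in order of age were 3470.0 ± 32.2, 2656 ± 4.83, 2844 ± 13.8 and 3770.0 ± 16.2 FPKM (SD, n = 3). Beside the rise from 26 to 30 WAF stood that of the epidermal list, of which 19 of 27 genes rose and 4 fell (median 0.82); its part in the changes of the pathway genes was not tested.

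**Figure D3:**
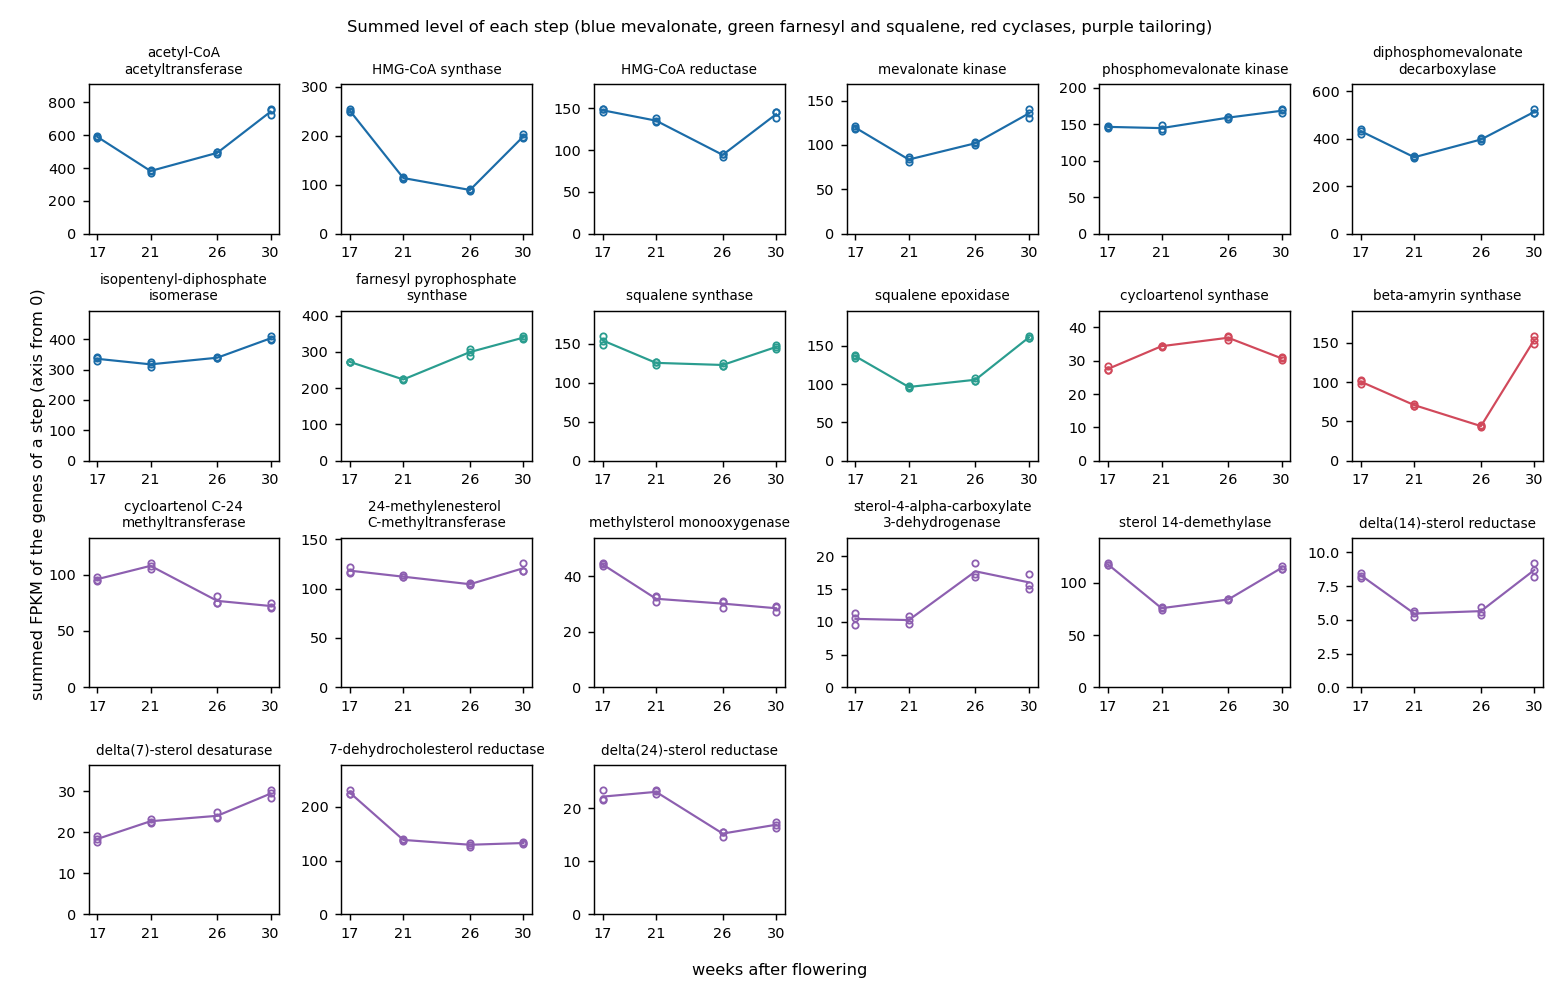
Summed FPKM of the genes of each step against age in weeks after flowering (circles are libraries, lines join the means of 3, each axis starts at 0). Acetyl-CoA acetyltransferase, squalene epoxidase and beta-amyrin synthase are higher at 30 WAF than at any earlier age, while 7-dehydrocholesterol reductase is highest at 17 WAF and cycloartenol synthase at 26 WAF.

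Acetyl-CoA acetyltransferase, which condenses acetyl-CoA into acetoacetyl-CoA and opens the pathway, was carried by 1 of 4 genes. LOC111390947 had 518, 521 and 513 FPKM at 17 WAF, 331, 324 and 311 at 21 WAF, 425, 416 and 426 at 26 WAF and 632, 661 and 668 at 30 WAF. Every library of 30 WAF exceeded, and every library of 21 WAF was below, all libraries of the other ages. It fell between 17 and 21 WAF (-0.68 ± 0.03, limma adjusted p = 6.5e-10) and rose between 26 and 30 WAF (0.63 ± 0.03, limma adjusted p = 8.7e-10). It made up between 84.3% and 87.9% of the summed FPKM of its step at each age. The other 3 genes of the step had means of 4.85 to 45.2 FPKM, and all 4 rose between 26 and 30 WAF.

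Single genes also led the later steps of the pathway. Diphosphomevalonate decarboxylase, which forms isopentenyl diphosphate, was led by LOC111381017, with 230.2, 250.1 and 246 FPKM at 17 WAF, 159.6, 156 and 163 at 21 WAF, 203, 201 and 206 at 26 WAF and 323, 309 and 302 at 30 WAF. No library of 30 WAF overlapped another age, and the lowest 3 values were those of 21 WAF. This gene fell between 17 and 21 WAF (-0.60 ± 0.04, limma adjusted p = 1.3e-08) and rose between 26 and 30 WAF (0.61 ± 0.04, limma adjusted p = 7e-09). Isopentenyl-diphosphate isomerase, which interconverts the 2 C5 units, was led by LOC111379751, with 250.4, 248 and 241 FPKM at 17 WAF, 237, 227 and 234 at 21 WAF, 259, 256 and 255 at 26 WAF and 293, 307 and 299 at 30 WAF. Its libraries at 30 WAF lay above all others, and the earlier ages lay close together. The rise between 26 and 30 WAF was 0.23 ± 0.03, limma adjusted p = 1e-05. Between 17 and 21 WAF it changed by -0.08 ± 0.03, limma adjusted p = 0.022, but by 0.002 under median-of-ratios scaling, and without library A or B of 17 WAF or B of 21 WAF the adjusted p was 0.073, 0.063 or 0.1. Mevalonate kinase and phosphomevalonate kinase add the phosphates. The 2 mevalonate kinase genes summed to 119.5 ± 1.77, 83.6 ± 2.85, 102 ± 2.17 and 136 ± 5.21 FPKM (SD, n = 3) in order of age. The 3 phosphomevalonate kinase genes summed to 146 ± 1.61, 145 ± 4.08, 159 ± 1.97 and 169 ± 2.56 FPKM, the narrowest range of the steps of the mevalonate pathway.

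Hydroxymethylglutaryl-CoA (HMG-CoA) synthase, which adds a further acetyl group to acetoacetyl-CoA, had the widest relative range of summed FPKM among the steps of the mevalonate pathway, from 89.3 ± 2.27 (SD, n = 3) at 26 WAF to 251 ± 3.17 at 17 WAF. Its leading gene LOC111407520 had 187, 184 and 178 FPKM at 17 WAF, 78.2, 77.4 and 80.5 at 21 WAF, 36.9, 40.2 and 36.8 at 26 WAF and 91.9, 87.4 and 88.6 at 30 WAF. The ages did not overlap, those of 21 and 30 WAF lay nearest to each other, and the values of 26 WAF were the lowest. It fell between 17 and 21 WAF (-1.21 ± 0.04, limma adjusted p = 3.4e-11), fell again between 21 and 26 WAF (-1.03 ± 0.04, limma adjusted p = 2.3e-10) and rose between 26 and 30 WAF (1.21 ± 0.04, limma adjusted p = 1.4e-11). LOC111378381, with the largest rise of the 25 mevalonate genes between 21 and 26 WAF, had 14.8, 16.2 and 13.8 FPKM at 17 WAF, 8.33, 6.11 and 6.22 at 21 WAF, 12.9, 12.4 and 12.9 at 26 WAF and 23.5, 25.8 and 27.6 at 30 WAF. Its lowest values were at 21 WAF and not at 26 WAF, and its highest at 30 WAF, with no overlap between neighbouring ages. The change from 21 to 26 WAF was 0.81 ± 0.10, limma adjusted p = 1.1e-05. LOC111399090 and LOC111379049, the remaining genes of the step, also rose in that interval, by 0.45 and 0.41 on the log2 scale (limma adjusted p = 3.8e-05 and 0.0001). The share of LOC111407520 in the summed FPKM of the step was 72.9%, 69.2%, 42.5% and 45.0% in order of age.

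HMG-CoA reductase, which releases mevalonate, had nearly the same summed level at the first and last age, while its 6 genes changed rank. The sums in order of age were 148 ± 1.8, 135 ± 2.27, 94.2 ± 1.78 and 143 ± 3.87 FPKM (SD, n = 3). LOC111401248 had 30.1, 31.8 and 33.0 FPKM at 17 WAF, 21.4, 23.03 and 21.2 at 21 WAF, 13.9, 15.5 and 15.4 at 26 WAF and 70.3, 74.8 and 75.4 at 30 WAF. Its 3 values of 30 WAF stood far above all others and those of 26 WAF were the lowest. The rise between 26 and 30 WAF was 2.22 ± 0.05, limma adjusted p = 6.7e-13, the largest of the 92 genes in that comparison. LOC111409359 had 39.5, 40.3 and 39.8 FPKM at 17 WAF, 27.6, 26.7 and 28.04 at 21 WAF, 18.9, 18.5 and 17.5 at 26 WAF and 5.39, 5.57 and 5.56 at 30 WAF. It was lower at each age than at the one before, with no overlap between ages. From 17 to 30 WAF it fell by 2.65 on the log2 scale (SE 0.04, limma adjusted p = 2.5e-15), the largest fall of the 92 genes in any of the 4 comparisons. LOC111410512 had 39.1, 39.6 and 38.4 FPKM at 17 WAF, 52.4, 48.1 and 48.8 at 21 WAF, 27.7, 28.1 and 29.2 at 26 WAF and 16.4, 16.9 and 15.6 at 30 WAF. It was highest at 21 WAF and lowest at 30 WAF, without overlap between neighbouring ages. Its changes were 0.34 ± 0.04, limma adjusted p = 9.6e-06 from 17 to 21 WAF, and -0.79 ± 0.04, limma adjusted p = 4.9e-09 and -0.76 ± 0.04, limma adjusted p = 2.9e-09 in the following intervals.

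Of the other 3 reductase genes, LOC111387692 followed the course of LOC111401248 at a lower level, with means of 15.04, 9.66, 6.297 and 19.1 FPKM, and rose by 1.46 between 26 and 30 WAF (limma adjusted p = 8e-11). LOC111387406 had means of 19.5 FPKM at 17 WAF and 23.7 to 24.1 at the later ages. LOC111376622 had means of 2.51 to 4.34 FPKM. LOC111401248 made up 21.4%, 16.2%, 15.9% and 51.4% of the reductase sum in order of age, and LOC111409359 made up 27.0%, 20.3%, 19.4% and 3.85%. LOC111410512 was the leading reductase gene at 21 and 26 WAF, with 36.8% and 30.1%. The libraries of 26 and 30 WAF did not overlap in any of these 3 shares; with 3 libraries against 3, an exact 2-sided permutation test cannot give a p below 0.1.

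**Figure D4:**
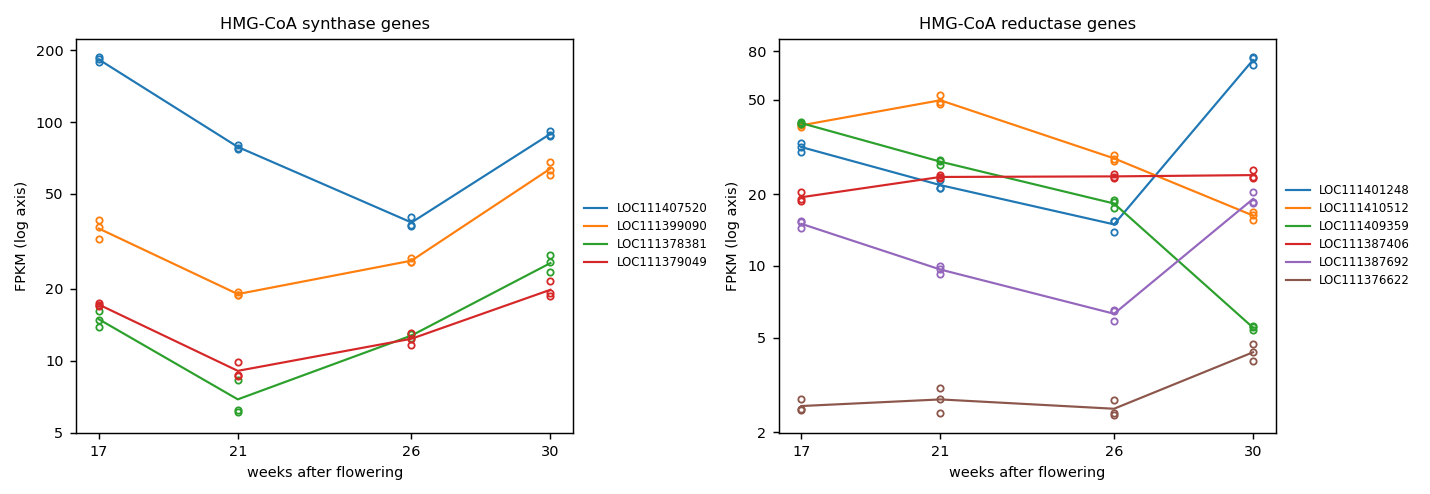
FPKM on a log axis of the 4 HMG-CoA synthase genes and the 6 HMG-CoA reductase genes against age in weeks after flowering (circles are libraries, lines join the means of 3). LOC111401248 goes from a mean of 14.96 to 73.5 FPKM between 26 and 30 WAF while LOC111409359 goes from 18.3 to 5.51.

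The 11 genes of farnesyl pyrophosphate and squalene had their lowest summed level at 21 WAF and their highest at 30 WAF. They summed to 555, 568 and 566 FPKM at 17 WAF, 442, 447 and 447 at 21 WAF, 530.02, 538 and 515 at 26 WAF and 652, 647 and 639.8 at 30 WAF. The sums of the ages did not overlap. Gene by gene, from 17 to 21 WAF 9 fell and 1 rose (median -0.54), where 35.9% and 22.2% of all genes tested did. Between 21 and 26 WAF 7 rose and 2 fell (median 0.17), where 23.2% and 32.9% of all genes did. Between 26 and 30 WAF 7 rose and 3 fell (median 0.54), where 42.0% and 24.3% of all genes did. At 30 WAF 8 were higher and 3 lower than at 17 WAF (median 0.29), as were 34.9% and 38.9% of all genes. Counting these with the mevalonate genes, 26 of the 36 genes up to squalene epoxide fell and 3 rose between 17 and 21 WAF. Median-of-ratios scaling gave 24 that fell and 8 that rose, beside 7330 and 7430 of all 26131 genes tested.

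Farnesyl pyrophosphate synthase, which extends the C5 units to the C15 chain, was led by LOC111396906, with 240.1, 243 and 244 FPKM at 17 WAF, 198, 198 and 199.8 at 21 WAF, 271, 280.4 and 262 at 26 WAF and 300.2, 297 and 296 at 30 WAF. It was lowest at 21 WAF and its values at 26 and 30 WAF were all above those of 17 WAF. It rose between 21 and 26 WAF (0.45 ± 0.03, limma adjusted p = 2e-08), and its share of the step was at least 87.7% at each age. The smaller rise between 26 and 30 WAF (0.14 ± 0.03, limma adjusted p = 0.00059) was 0.03 under median-of-ratios scaling, with an adjusted p of 0.35.

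Squalene synthase, the enzyme that commits farnesyl pyrophosphate to squalene, had 5 genes. LOC111380678, the most abundant up to 26 WAF, rose between 17 and 21 WAF, where the other 4 fell, and at 30 WAF LOC111374919 held the largest share, 41.2% of the step. LOC111380678 had 53.1, 59.7 and 57.6 FPKM at 17 WAF, 67.3, 66.8 and 69.3 at 21 WAF, 54.7, 54.6 and 54.1 at 26 WAF and 42.7, 39.9 and 42.1 at 30 WAF. It was highest at 21 WAF and lowest at 30 WAF, and neither age overlapped its neighbour. Its changes were 0.25 ± 0.04, limma adjusted p = 0.00018 from 17 to 21 WAF, -0.31 ± 0.04, limma adjusted p = 3.6e-05 from 21 to 26 WAF and -0.38 ± 0.04, limma adjusted p = 3.5e-06 from 26 to 30 WAF. LOC111379472 had 15.3, 14.1 and 13.8 FPKM at 17 WAF, 5.34, 6.18 and 5.72 at 21 WAF, 6.40, 6.86 and 6.74 at 26 WAF and 21.4, 19.1 and 19.3 at 30 WAF. Its values of 21 and 26 WAF all lay below those of 17 WAF, which lay below those of 30 WAF. It had the largest fall of its role group from 17 to 21 WAF (-1.19 ± 0.06, limma adjusted p = 3.4e-09) and the largest rise from 26 to 30 WAF (1.45 ± 0.06, limma adjusted p = 2.8e-10). The other 3 squalene synthase genes also fell between 17 and 21 WAF, by 0.54 to 0.88 on the log2 scale. The summed level of the step was 154 ± 5.45, 125 ± 2.03, 123 ± 1.97 and 146 ± 2.47 FPKM (SD, n = 3) in order of age, and LOC111380678 held 54.1% of it at 21 WAF and 28.5% at 30 WAF.

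Squalene epoxidase (squalene monooxygenase) puts the epoxide on squalene before it is cyclised. LOC111376794, with 65.7% to 76.9% of the step, had 96.5, 97.7 and 101 FPKM at 17 WAF, 73.5, 75.5 and 73.2 at 21 WAF, 71.8, 67.6 and 69.1 at 26 WAF and 119, 122 and 119.6 at 30 WAF. It was highest at 30 WAF and lower at 21 and 26 WAF than at 17 WAF. It fell between 17 and 21 WAF (-0.40 ± 0.03, limma adjusted p = 1.2e-07) and rose between 26 and 30 WAF (0.78 ± 0.03, limma adjusted p = 1.1e-10). LOC111390117 had 11.3, 11.8 and 11.8 FPKM at 17 WAF, 5.78, 5.71 and 6.03 at 21 WAF, 13.6, 14.3 and 13.5 at 26 WAF and 12.8, 12.3 and 12.5 at 30 WAF, and LOC111401374 had 7.68, 7.10 and 7.84 FPKM at 17 WAF, 7.49, 8.06 and 7.94 at 21 WAF, 14.2, 14.2 and 14.2 at 26 WAF and 11.1, 10.6 and 10.9 at 30 WAF. Both were highest at 26 WAF, where they rose from 21 WAF by 1.12 (limma adjusted p = 2.8e-10) and 0.78 (limma adjusted p = 1.9e-08). Their shares of the step were 6.07% and 8.14% at 21 WAF and 13.1% and 13.4% at 26 WAF.

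Among the cyclases, the leading beta-amyrin synthase was lowest at 26 WAF and highest at 30 WAF, while the leading cycloartenol synthase was highest at 21 and 26 WAF. Of the 7 cyclase genes, 2 rose and 3 fell between 17 and 21 WAF, where 22.2% and 35.9% of all genes tested did. Between 21 and 26 WAF 1 rose and 2 fell, where 23.2% and 32.9% of all genes did. Between 26 and 30 WAF 2 rose and 2 fell, where 42.0% and 24.3% of all genes did. Under median-of-ratios scaling 3 rose and 2 fell between 21 and 26 WAF, beside 7645 and 6674 of all 26131 genes tested. At 30 WAF 3 were higher than at 17 WAF and 4 did not pass the test (3 higher and 1 lower under TPM scaling). Without library C of 30 WAF 5 were higher. Of all genes tested, 34.9% were higher and 38.9% lower in that comparison, and under TPM scaling 8010 were higher and 11408 lower. LOC111409925, beta-amyrin synthase 1, had 93.7, 99.2 and 97.7 FPKM at 17 WAF, 65.2, 65.2 and 66.01 at 21 WAF, 38.6, 39.9 and 39.9 at 26 WAF and 146, 149.9 and 143 at 30 WAF. The ages did not overlap, and the value of 30 WAF was 3.71 times that of 26 WAF. It fell between 17 and 21 WAF (-0.56 ± 0.03, limma adjusted p = 5.2e-09) and between 21 and 26 WAF (-0.72 ± 0.03, limma adjusted p = 7.2e-10), then rose (1.86 ± 0.03, limma adjusted p = 2.2e-14). The other 3 beta-amyrin synthase genes had means of 0.327 to 4.35 FPKM, and LOC111409925 made up at least 89.8% of the step at each age. Among them LOC111411935 had means of 0.440 to 1.07 FPKM up to 26 WAF and 4.33 at 30 WAF. It passed the filter of 1 FPKM in 3 libraries only through those of 30 WAF, so no p-value is given for its rise. Its place among the cyclases that rose in the last interval is therefore not independent of the filter.

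LOC111372683, described as a cycloartenol synthase, had 18.2, 18.3 and 19.1 FPKM at 17 WAF, 26.1, 26.8 and 25.9 at 21 WAF, 27.8, 27.4 and 26.7 at 26 WAF and 20.5, 20.97 and 21.1 at 30 WAF. The libraries of 21 and 26 WAF were all above those of 17 and 30 WAF. It rose between 17 and 21 WAF (0.48 ± 0.03, limma adjusted p = 6.3e-08) and fell between 26 and 30 WAF (-0.37 ± 0.03, limma adjusted p = 5.6e-07). LOC111372684 had 6.54, 6.39 and 6.67 FPKM at 17 WAF, 5.42, 5.22 and 5.56 at 21 WAF, 6.34, 6.75 and 6.64 at 26 WAF and 7.41, 7.27 and 6.37 at 30 WAF, a range of less than 3 FPKM over all libraries. It is described as cycloartenol synthase 2-like, and the KEGG entry of the deposited table lists it under camelliol C, beta-amyrin and cycloartenol synthase, so its product is uncertain; it is counted with the cycloartenol synthases below. The ratio of summed beta-amyrin synthase to summed cycloartenol synthase FPKM was 3.601, 3.76 and 3.59 at 17 WAF, 2.04, 2.03 and 2.104 at 21 WAF, 1.15, 1.21 and 1.22 at 26 WAF and 5.002, 5.10 and 4.94 at 30 WAF. It fell from age to age up to 26 WAF and was highest at 30 WAF, with no overlap between ages. Each comparison of ages gave an exact 2-sided permutation p of 0.1, the smallest that 3 libraries against 3 allow.

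**Figure D5:**
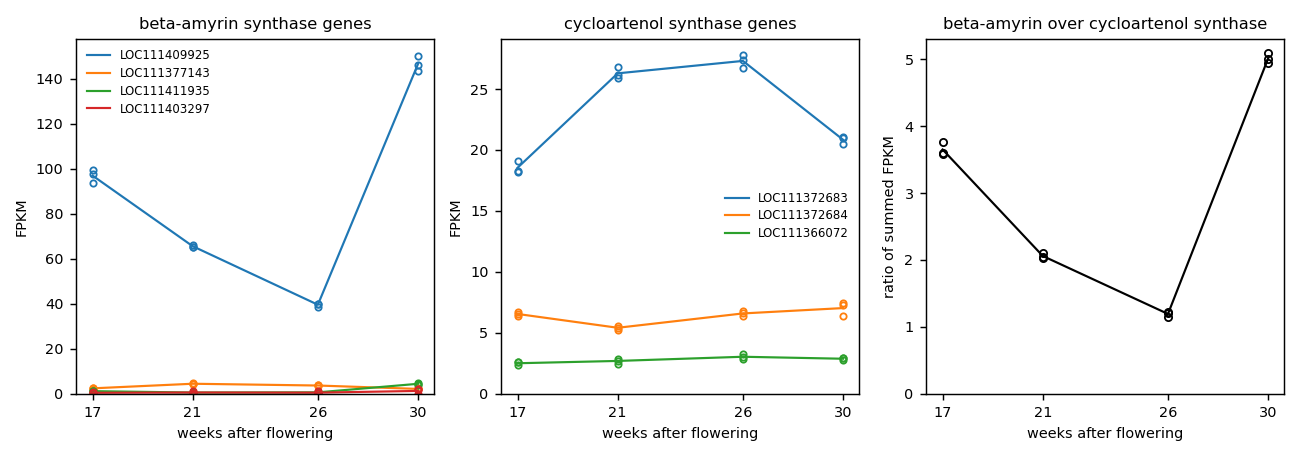
FPKM of the 4 beta-amyrin synthase genes (left) and the 3 cycloartenol synthase genes (middle), and the ratio of their sums (right), against age in weeks after flowering (circles are libraries, lines join the means of 3, axes start at 0). The mean ratio goes from 3.65 at 17 WAF through 2.06 and 1.19 to 5.01 at 30 WAF.

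The summed level of sterol tailoring, the steps from cycloartenol to the finished phytosterols, did not return to that of 17 WAF. The 20 genes summed to 667, 679.7 and 684 FPKM at 17 WAF, 539, 543 and 537 at 21 WAF, 507, 497 and 494 at 26 WAF and 560.2, 557 and 561 at 30 WAF. No library of a later age reached the lowest of 17 WAF. Between 17 and 21 WAF 11 fell and 3 rose (median -0.33), where 35.9% and 22.2% of all genes tested did. Between 21 and 26 WAF 7 fell and 5 rose (median -0.03), where 32.9% and 23.2% of all genes did. Between 26 and 30 WAF 11 rose and 1 fell (median 0.23), where 42.0% and 24.3% of all genes did. The split of the later intervals depended on the scaling. Under median-of-ratios scaling 7 rose and 5 fell between 21 and 26 WAF (median 0.04), beside 7645 and 6674 of all 26131 genes tested. Between 26 and 30 WAF 8 rose and 4 fell under that scaling, beside 8441 and 8158 of all genes. Under TPM scaling 7 rose and 6 fell between 21 and 26 WAF, beside 6487 and 7860 of all genes. Between 26 and 30 WAF TPM scaling gave 11 that rose and 3 that fell, beside 9916 and 6949 of all genes. At 30 WAF 9 were lower and 5 higher than at 17 WAF (median -0.19), as were 38.9% and 34.9% of all genes.

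The largest fall of a tailoring gene between 17 and 21 WAF was that of a 7-dehydrocholesterol reductase, the enzyme that removes the ring double bond at carbon 7. LOC111401765 had 145, 143 and 150.3 FPKM at 17 WAF, 72.2, 74.7 and 73.95 at 21 WAF, 78.1, 78.0 and 75.2 at 26 WAF and 78.7, 79.03 and 78.5 at 30 WAF. The later ages lay close together and all below 17 WAF. From 17 to 21 WAF it changed by -0.98 ± 0.03, limma adjusted p = 1.7e-11, and the value at 30 WAF was 0.539 times that at 17 WAF. The second gene of this name, LOC111384711, went from 80.5 ± 1.41 FPKM (SD, n = 3) to 64.98 ± 0.352, 52.5 ± 1.97 and 54.05 ± 2.69. Methylsterol monooxygenases remove the methyl groups at carbon 4. LOC111374734 had 18.04, 19.5 and 16.3 FPKM at 17 WAF, 11.4, 12.4 and 12.8 at 21 WAF, 12.3, 13.3 and 11.5 at 26 WAF and 8.16, 8.45 and 8.31 at 30 WAF. It was lowest at 30 WAF and highest at 17 WAF, without overlap, and its change from 17 to 30 WAF was -1.02 ± 0.07, limma adjusted p = 1.5e-08, the largest fall of a tailoring gene over the whole span.

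Cycloartenol-C-24-methyltransferase, which makes the first of the side-chain methylations, was represented by LOC111410482, with 94.4, 95.1 and 98.1 FPKM at 17 WAF, 110.2, 108 and 105 at 21 WAF, 80.6, 75.03 and 74.4 at 26 WAF and 74.7, 71.2 and 70.5 at 30 WAF. It was highest at 21 WAF and lower at 26 and 30 WAF than before. It rose from 17 to 21 WAF (0.17 ± 0.04, limma adjusted p = 0.0015) and fell from 21 to 26 WAF (-0.49 ± 0.04, limma adjusted p = 1.8e-07). Sterol 14-demethylase was led by LOC111401661, with 72.99, 73.5 and 72.95 FPKM at 17 WAF, 49.2, 49.8 and 49.3 at 21 WAF, 59.3, 59.1 and 60.2 at 26 WAF and 86.2, 85.3 and 86.98 at 30 WAF. Its highest values were at 30 WAF and its lowest at 21 WAF. It fell from 17 to 21 WAF (-0.56 ± 0.02, limma adjusted p = 6e-10) and rose from 26 to 30 WAF (0.53 ± 0.02, limma adjusted p = 6.2e-10). The other sterol 14-demethylase gene, LOC111406212, kept below its first level, with means of 44.4, 26.4, 24.6 and 28.3 FPKM.

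Genes for the introduction of the double bond at carbon 5 rose between 17 and 21 WAF, where 11 of the 20 tailoring genes fell. Of the delta(7)-sterol-C5(6)-desaturases, LOC111407991 had 10.6, 11.3 and 11.2 FPKM at 17 WAF, 12.98, 13.03 and 13.1 at 21 WAF, 16.03, 14.99 and 16.02 at 26 WAF and 18.1, 19.8 and 19.9 at 30 WAF. Each age lay above the one before it, without overlap. The change from 17 to 30 WAF was 0.75 ± 0.04, limma adjusted p = 6.1e-09, the largest rise among the tailoring genes. LOC111401052 had 6.95, 7.94 and 7.07 FPKM at 17 WAF, 9.39, 9.29 and 10.2 at 21 WAF, 8.81, 8.50 and 7.64 at 26 WAF and 10.2, 9.83 and 10.5 at 30 WAF. It was higher at 21 and 30 WAF than at 17 WAF, by 0.35 ± 0.06, limma adjusted p = 0.00033 and 0.43 ± 0.06, limma adjusted p = 4e-05. LOC111409485, described as a sterol-4-alpha-carboxylate 3-dehydrogenase but listed by KEGG as a farnesol dehydrogenase, had 9.51, 10.5 and 11.3 FPKM at 17 WAF, 10.2, 10.9 and 9.70 at 21 WAF, 18.97, 16.9 and 17.2 at 26 WAF and 15.6, 15.1 and 17.4 at 30 WAF. Its values of 26 and 30 WAF were above all earlier ones, and the change from 21 to 26 WAF was 0.73 ± 0.07, limma adjusted p = 2e-06. LOC111396819, like ergosterol biosynthetic protein 28, which in yeast tethers the enzymes of carbon 4 demethylation, had 6.59, 5.59 and 5.82 FPKM at 17 WAF, 5.52, 4.54 and 5.17 at 21 WAF, 3.28, 2.08 and 3.21 at 26 WAF and 5.84, 4.39 and 5.58 at 30 WAF. It was lowest at 26 WAF, with changes of -0.67 ± 0.13, limma adjusted p = 0.00066 and 0.71 ± 0.13, limma adjusted p = 0.0003 into and out of that age.

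One pair of genes stood apart in its replicates. LOC111381993 and LOC111381992, both described as 24-methylenesterol C-methyltransferase 2-like, the enzyme of the later side-chain methylation on the way to sitosterol, varied strongly within each age. LOC111381993 had 49.2, 35.5 and 42.96 FPKM at 17 WAF, 67.2, 60.1 and 29.97 at 21 WAF, 48.7, 37.3 and 60.2 at 26 WAF and 47.6, 56.9 and 75.3 at 30 WAF, and LOC111381992 had 37.6, 54.03 and 43.05 FPKM at 17 WAF, 23.1, 33.1 and 59.8 at 21 WAF, 32.1, 43.9 and 22.4 at 26 WAF and 42.5, 38.5 and 14.9 at 30 WAF. A library high in the one was low in the other: the share of LOC111381992 in the pair was 43.3, 60.3 and 50.05% at 17 WAF, 25.6, 35.5 and 66.6 at 21 WAF, 39.7, 54.1 and 27.1 at 26 WAF and 47.2, 40.4 and 16.5 at 30 WAF. Their sum was 86.8, 89.6 and 86.01 FPKM at 17 WAF, 90.4, 93.2 and 89.7 at 21 WAF, 80.9, 81.2 and 82.7 at 26 WAF and 90.1, 95.4 and 90.2 at 30 WAF, so the libraries of an age lay closer together in the sum than in either gene, and those of 26 WAF lay below all others. Neither gene of the pair passed the test in any comparison. Where copies are near-identical, their shared reads may be split between them, so the level of each gene is uncertain; how alike the pair is in sequence was not tested. The third gene of this name, LOC111412135, had 29.4, 32.1 and 30.6 FPKM at 17 WAF, 21.0, 19.98 and 21.5 at 21 WAF, 23.4, 22.1 and 22.98 at 26 WAF and 28.1, 30.5 and 27.5 at 30 WAF; it fell between 17 and 21 WAF (-0.54 ± 0.05, limma adjusted p = 6.8e-07) and rose between 26 and 30 WAF (0.32 ± 0.05, limma adjusted p = 6.5e-05).

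The 11 conjugation genes, which store or anchor sterols as glucosides and esters, included 9 sterol glucosyltransferases and 2 acyltransferases. Of these, 6 fell and 1 rose from 17 to 21 WAF (median -0.14), where 35.9% and 22.2% of all genes tested did. Between 21 and 26 WAF 6 fell and 3 rose (median -0.22), where 32.9% and 23.2% of all genes did. Between 26 and 30 WAF 5 rose, where 42.0% of all genes did, and 6 did not pass the test (median 0.08). Under median-of-ratios scaling 4 rose and 2 fell in that last interval (median 0.002), beside 8441 and 8158 of all 26131 genes tested. Under TPM scaling the first interval gave 6 that fell and 5 that did not pass the test. Of all genes, 10913 fell and 4840 rose in the first interval under TPM scaling. At 30 WAF 2 were lower (5 under TPM scaling) and 1 higher than at 17 WAF, with a median of -0.09. Of all genes, 38.9% were lower and 34.9% higher in that comparison, and under TPM scaling 11408 were lower and 8010 higher. The 9 sterol glucosyltransferases of the UGT80 family summed to 58.8 ± 1.04, 55.99 ± 1.31, 54.3 ± 1.7 and 58.2 ± 1.11 FPKM (SD, n = 3) in order of age. The most abundant, LOC111371633, had 13.1, 13.5 and 13.8 FPKM at 17 WAF, 12.01, 12.4 and 11.9 at 21 WAF, 14.4, 14.3 and 12.9 at 26 WAF and 14.4, 13.3 and 13.8 at 30 WAF. LOC111408757 had 12.8, 13.99 and 12.8 FPKM at 17 WAF, 14.5, 13.8 and 13.1 at 21 WAF, 11.96, 10.9 and 11.5 at 26 WAF and 12.8, 12.1 and 11.7 at 30 WAF. Neither moved by more than 3 FPKM between age means, and LOC111408757 fell from 21 to 26 WAF (-0.25 ± 0.05, limma adjusted p = 0.0017). LOC111376378 had age means of 5.93 to 7.54 FPKM and LOC111403636 of 4.697 to 6.16 FPKM. LOC111375253, described as an acyl-CoA sterol acyltransferase, had 8.62, 8.86 and 7.71 FPKM at 17 WAF, 3.02, 2.85 and 2.91 at 21 WAF, 1.46, 1.34 and 1.96 at 26 WAF and 4.36, 3.65 and 4.21 at 30 WAF. It was highest at 17 WAF and lowest at 26 WAF, without overlap. It fell by 1.26 on the log2 scale, SE 0.09, limma adjusted p = 9.3e-08 from 17 to 21 WAF, and KEGG lists it as plastin-1, so its function is uncertain. LOC111405783, described as a phospholipid sterol acyltransferase, had 11.3, 11.1 and 11.4 FPKM at 17 WAF, 8.08, 7.51 and 7.67 at 21 WAF, 6.67, 6.57 and 5.66 at 26 WAF and 10.3, 10.6 and 10.8 at 30 WAF. It fell to 26 WAF and rose again to 30 WAF (0.67 ± 0.06, limma adjusted p = 3.2e-07), and KEGG lists it as a phospholipid:diacylglycerol acyltransferase, so its substrate is uncertain.

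The other 18 genes, which are not synthesis, were counted apart. Between 17 and 21 WAF 10 fell and 6 rose (3 under TPM scaling), where 35.9% and 22.2% of all genes tested did. TPM scaling gave 4840 of all 26131 genes tested that rose in that interval. Between 21 and 26 WAF 4 fell and 3 rose, where 32.9% and 23.2% of all genes did. Between 26 and 30 WAF 9 fell and 7 rose, where 24.3% and 42.0% of all genes did. Under median-of-ratios scaling 6 rose and 12 did not pass the test between 21 and 26 WAF. Of all 26131 genes tested, 7645 rose and 6674 fell in that interval under that scaling. Between 26 and 30 WAF it gave 11 that fell and 5 that rose, beside 8158 and 8441 of all genes. At 30 WAF 8 were lower and 5 higher than at 17 WAF, as were 38.9% and 34.9% of all genes. Oxysterol-binding proteins move lipids between membranes, and LOC111393527 was the most abundant of the 13, with 179, 166 and 162 FPKM at 17 WAF, 119, 139 and 142 at 21 WAF, 134, 158 and 145 at 26 WAF and 85.6, 86.7 and 83.2 at 30 WAF. Its values of 30 WAF were the lowest and those of 17 WAF the highest. It fell from 26 to 30 WAF (-0.77 ± 0.07, limma adjusted p = 5.5e-07). LOC111388245 had 142, 158 and 158 FPKM at 17 WAF, 124, 131 and 129 at 21 WAF, 135, 133 and 128 at 26 WAF and 111, 110.4 and 117 at 30 WAF. It also fell from 26 to 30 WAF (-0.23 ± 0.04, limma adjusted p = 0.00052), while LOC111409096 was highest at 26 WAF, with a mean of 17.6 ± 0.539 FPKM (SD, n = 3). LOC111376605 went from 18.2 ± 0.569 FPKM at 17 WAF to 10.9 ± 0.302 at 21 WAF (-0.69 ± 0.05, limma adjusted p = 5.3e-08). The lecithin-cholesterol acyltransferase-like gene LOC111368713 had 92.5, 98.04 and 99.1 FPKM at 17 WAF, 115, 115 and 117 at 21 WAF, 120.2, 122 and 116 at 26 WAF and 109, 108 and 107 at 30 WAF. It was lowest at 17 WAF, and rose to 21 WAF (0.26 ± 0.03, limma adjusted p = 1e-05). LOC111397450 of the same family had 8.82, 8.31 and 9.42 FPKM at 17 WAF, 19.3, 19.8 and 19.2 at 21 WAF, 17.5, 17.03 and 16.7 at 26 WAF and 11.02, 9.95 and 10.03 at 30 WAF. It was high at 21 and 26 WAF and had the largest rise of the 92 genes from 17 to 21 WAF (1.06 ± 0.05, limma adjusted p = 1.8e-09). HMG-CoA lyase, a mitochondrial enzyme of leucine breakdown, was represented by LOC111403183 and LOC111411913. LOC111411913 had 8.11, 9.02 and 8.54 FPKM at 17 WAF, 6.28, 6.48 and 5.36 at 21 WAF, 4.70, 5.79 and 5.41 at 26 WAF and 10.4, 11.2 and 11.4 at 30 WAF. Its values of 30 WAF were above all others, with a change of 0.93 ± 0.08, limma adjusted p = 2.7e-07 from 26 WAF.

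Genes of the pathway that the chosen words did not reach were counted apart. Of 29 other sterol and triterpene genes, 14 were tested. Of these, 11 fell between 17 and 21 WAF, where 35.9% of all genes tested did, and 3 did not pass the test. Between 21 and 26 WAF 5 rose and 4 fell, where 23.2% and 32.9% of all genes did. Between 26 and 30 WAF 10 rose and 1 fell, where 42.0% and 24.3% of all genes did. Across the whole span 5 had risen and 6 had fallen, where 34.9% and 38.9% of all genes had. Beta-amyrin 28-oxidases, which turn beta-amyrin towards oleanolic acid, included LOC111374953, with means of 235, 141, 227 and 603 FPKM in order of age. LOC111365629 likewise was highest at the last age, with means of 130, 110, 183 and 388 FPKM. LOC111407310 of the same name had means of 378, 164, 90.1 and 175 FPKM and so did not return to its first level. LOC111407269, described as a dammarenediol II synthase, another cyclase of squalene epoxide, had means of 23.7, 8.43, 3.15 and 7.91 FPKM. The plastid makes the same C5 units by the methylerythritol phosphate route. Of its 21 genes 17 were tested. Between 17 and 21 WAF 8 rose and 5 fell (22.2% and 35.9% of all genes), and between 21 and 26 WAF 9 rose and 2 fell (23.2% and 32.9% of all genes). Between 26 and 30 WAF 9 rose and 3 fell (42.0% and 24.3% of all genes). Across the whole span 9 had risen and 5 had fallen (34.9% and 38.9% of all genes). Under median-of-ratios scaling 4 of the 17 rose between 26 and 30 WAF, beside 8441 of all 26131 genes tested. Their sum stayed between 291 and 334 FPKM in the 12 libraries.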

How the data were processed

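Mesocarp RNA was prepared by CTAB extraction and a column kit, treated with DNase and sequenced on the DNBseq platform, per the labels' protocols. The deposited table holds 1 FPKM value for each gene in each library, as computed by the authors. The submitters' processing notes name, without roles, HISAT2 (2.0.4), RSEM, Bowtie2 (2.2.5) and StringTie (1.0.4). Build, annotation and strand were not given in the sources used here; no coordinate or sequence is therefore printed, and reads of a gene and an antisense partner cannot be separated. Names were taken from the file, and all 119 IDs matched the reference gene table. Of 1065 genes with low values, 8.7 to 16.5% of ratios between libraries lay within 0.1 log2 of the commonest ratio, so counts were not recovered. The 26131 genes that reached 1 FPKM in 3 or more libraries entered a limma fit (3.58.1, under R 4.3.3) of log2(FPKM + 1), which understates changes of low genes. A gene could enter through the libraries of 1 age alone, and the counts include such genes. The fit had a mean per age, a variance trend on abundance and 8 residual degrees of freedom. Tests are 2-sided, with Benjamini-Hochberg adjustment over all genes tested and a threshold of 0.05, and the procedure was tested on simulated data. Members and lists were chosen with earlier results of these data known. Genes named are, per role, the 3 with the highest mean and, per comparison, the largest rise and fall among genes that passed the threshold and averaged at least 5 FPKM at the higher age. Other genes named complete a step, a pair or a list and were chosen after their values were seen. The alternatives tried were another pseudocount (0.1), no filter, a mean of at least 5 FPKM, scaling as TPM or by the median of ratios, the letter as a block, only the 2 ages compared, and each library left out.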

Additional observations from a re-analysis of the deposited data

How the results depend on the processing

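The counts of all 92 genes that rose, fell or changed stayed within 1.5 times under every alternative tried. With each library left out in turn, the 92 genes gave 13 to 15 higher and 54 to 56 lower between 17 and 21 WAF, 30 to 34 and 20 to 26 between 21 and 26 WAF, 47 to 51 and 18 to 22 between 26 and 30 WAF, and 38 to 41 and 23 to 26 between 17 and 30 WAF; 83 to 87 changed over the 4 ages. Under median-of-ratios scaling 2 named genes changed sign in a comparison where they passed the threshold in that fit or the main one. They were LOC111379751 from 17 to 21 WAF (0.002) and LOC111401765 from 26 to 30 WAF (-0.077, limma adjusted p = 0.023). The cause was not tested. Changes of sign where neither fit passed were not counted, such as that of LOC111409485 from 17 to 21 WAF (-0.021 and 0.054). No scaling moved the median change of all genes by more than 0.1 on the log2 scale. Deviations of same-lettered libraries from their age means correlated between -0.086 and 0.074 over the genes tested. Such values cannot tell whether a letter marks a shared tree, batch or day, which the labels do not say. With the replicate block, 15 rose and 57 fell, 33 rose and 24 fell, 49 rose and 20 fell, and 39 rose and 23 fell in the 4 comparisons, and 86 changed over the ages. Over all fits with a library left out, the calls of the named genes at single comparisons were unchanged in 1771 cases. A call was lost in 41 cases and gained in 12. Each result counts once per fit, and losses recurred for LOC111390117 from 17 to 30 WAF and LOC111376605 from 21 to 26 WAF. With a mean of at least 5 FPKM, fewer genes were tested: of 6 conjugation genes left, 3 fell between 17 and 21 WAF, and 1 rose between 26 and 30 WAF. FPKM carry no depth, so no counting error is given.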

Other observations

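In the plastid route to the C5 units, LOC111385769 is described as a probable 1-deoxy-D-xylulose-5-phosphate synthase 2. It had 0.17, 0 and 0.32 FPKM at 17 WAF, 0.48, 0.63 and 0.82 at 21 WAF, 1.72, 0.89 and 1.15 at 26 WAF and 7.51, 5.35 and 6.16 at 30 WAF. The gene passed the filter of 1 FPKM in 3 libraries only through those of 30 WAF. No p-value is therefore given for its log2 change of 1.71 from 26 to 30 WAF. LOC111375809, another gene for the first enzyme of that route, had already risen by 21 WAF, with means of 14.1, 24.9, 24.5 and 25.9 FPKM (0.78, limma adjusted p = 2.6e-09 for 21 against 17 WAF). LOC111382474, described as cycloeucalenol cycloisomerase, which opens the cyclopropane ring of sterol precursors, had means of 14.1, 7.11, 6.09 and 6.52 FPKM (-0.91, limma adjusted p = 6.9e-05 for 21 against 17 WAF).

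The phosphomevalonate kinase genes LOC111407417 and LOC111407418 are direct neighbours in the RefSeq assembly O_europaea_v1. From 26 to 30 WAF the former rose by 0.20 on the log2 scale and the latter fell by 0.33 (limma adjusted p = 7.9e-06 and 0.0013). All genes in these paragraphs were chosen after their values were seen.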
